A study of Mus musculus with 25 samples.

Results

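C430039J01Rik, Gm42929, Gm28959, Gm9396, Gm11769, Gm28539 and Gm49394 are 7 mouse gene models without a name of known function. They were taken by symbol from the 47575 genes measured in sperm RNA. Each had been picked because at least 1 experimental diet gave it a low p against the control diet or a call in that comparison, so its difference from the control is described here and not tested. They bear no functional name but are not unannotated, since GENCODE vM39 holds a model for each of them. C430039J01Rik and Gm42929 are in the class TEC, which holds unspliced models known only from cDNA or EST evidence and still to be tested at the bench. Gm28959 and Gm11769 are lncRNA genes, Gm9396 is a processed pseudogene, and Gm28539 and Gm49394 are listed as protein coding, the first as a readthrough of neighbouring genes.

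Sperm came from C57/BL6J males fed 1 of 5 diets for at least 8 weeks, with 5 libraries per diet and 1 male per library. The control diet (CD, named normal protein diet in the labels) held casein at 18% and sugar at 21%, and the low protein diet (LPD) casein at 9% and sugar at 24%. The Western diet (WD) held casein at 19%, sugar at 34%, milk fat at 20% and cholesterol at 0.15%. MD-LPD and MD-WD had the base of LPD and WD plus methyl donors, which came to 5 g of choline chloride, 15 g of betaine, 7.5 g of methionine, 15 mg of folic acid and 1.5 mg of vitamin B12 in each kg of diet. Males of all groups were of the same strain and carried no engineered allele in the labels. For 3 of the 25 libraries the treatment field of the labels names another diet than the title (CD male 15, LPD male 15 and MD-LPD male 15), and the title was used.

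Mature sperm are transcriptionally silent, and the RNA they carry was made earlier, in the testis, or taken up along the epididymis. Sequencing of total RNA therefore reads spliced messages together with pieces of introns, antisense transcripts and pseudogene copies. A read can be given to a small gene model only where its sequence or its strand sets it apart from the larger gene around it, from its antisense partner or from its parent gene.

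The libraries held 32455480 to 54108158 assigned reads (median 38676778), and a value is a read count divided by the size factor of its library, called a normalised count below. The CD libraries held 32455480 to 38676778 reads and the WD libraries 38382505 to 50866207, so depth and diet moved together in part. The 8 marker genes of sperm and late spermatids were read in all 25 libraries, with a summed level of 75682 to 1239579.8 normalised counts. The 7 markers of epididymal epithelium summed to 77304 to 440335, with 4 of the 7 read in all libraries, and all 6 leukocyte markers were read in all libraries, at 9769.7 to 54679. All 5 fibroblast markers and all 4 erythrocyte markers were also read in all libraries, at 17792 to 218558 and 5856 to 107149. Markers of other cells were thus read beside those of sperm, and their part in the results below was not tested. Of the 12 marker lists, the summed level with the strongest r against a model over the 25 libraries was that of liver genes against Gm42929 (-0.52), and that list was at 28.1 to 149 normalised counts on CD and 16.1 to 2637 on WD. A lower share of a kind of cell and less RNA per cell cannot be told apart in such libraries.

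The sequences of the models show how far their reads can be told from those of other genes. Gm9396 (chr3:129862061-129862627, plus strand, GRCm39) is a single exon of 567 bases that matches the Rpl12 transcript along its whole length at 99.3%, with 4 mismatches. Written with the base of Gm9396 first, the position counted from 1 at its 5′ end, and the base of Rpl12 last, these are A231G, A264G, C294T and C430T. The 30 bases around the first and the last mismatch are shown in both genes because only reads that cross such a base can tell the copies apart (the mismatch is in capitals).
Gm9396 around 231: accggtgactggaaAggtctcagaattaca
Rpl12 around 231: accggtgactggaaGggtctcagaattaca
Gm9396 around 430: tgagacaccggtctCtggctagagaacttt
Rpl12 around 430: tgagacaccggtctTtggctagagaacttt

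Gm28539 (chr16:18655334-18774997, plus strand) has 24 exons, of whose bases 93.2% are also exon of Hira and 6.84% exon of 2510002D24Rik, the gene upstream of it. Gm49394 (chr7:142204503-142223679, minus strand) has 5 exons, with 75.9% of the bases shared with Igf2 on the same strand and 24.1% lying antisense to Igf2os. The junction between exon 2 and exon 3 is where each model passes from its upstream exons to those of Hira or Igf2. It is shown because reads that cross it belong to the model. Both are printed with the last 15 bases of exon 2 in lower case and the first 15 of exon 3 in capitals, and neither run of 30 occurs in a transcript of another gene.
Gm28539 exon 2 to exon 3: agcgccgaggcccagGGAAGCCAATTTTTT
Gm49394 exon 2 to exon 3: agtctttcctcagagGTACCAATGGGGATC

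C430039J01Rik (chr7:116009082-116010038, minus strand) is a single exon of 957 bases inside intron 2 of Pik3c2a, a gene of 33 exons on the same strand, and covers 8.33% of that intron. The genome just past its annotated 3′ end is rich in A, with 21 of 30 bases and a run of 14, shown here because a run of A in the genome can be primed by oligo(dT) in cDNA cloning as if it were a poly(A) tail (A in capitals).
C430039J01Rik, 30 bases past the 3′ end, chr7:116009052-116009081: AAAAAAAAAAAAAAggtAAAgAgAgcAccA
Gm42929, 30 bases past the 3′ end, chr3:121222981-121223010: AccAttttgtgtgtAtgggtgttttgtttg

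Gm42929 (chr3:121221695-121222980, plus strand) is a single exon of 1286 bases in intron 1 of Cnn3, also on the strand of its host, and its flank held 3 A with no run. Of all windows of 75 bases, the length of a read, in the longest transcript of each model, 883 of 883 in C430039J01Rik and 1196 of 1212 in Gm42929 were found in no other annotated transcript on either strand. For Gm9396, 280 of 493 windows were identical in Rpl12 and 368 in at least 1 of 12 genes. For Gm28539, 2768 of 2908 windows were also in Hira or 2510002D24Rik, and for Gm49394, 3529 of 4667 were also in Igf2. The search covered spliced transcripts only. Unspliced RNA of Pik3c2a and Cnn3 holds every base of both intronic models on the same strand, so their reads cannot be told apart from those of host introns.

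All 7 models had a mean of at least 5 normalised counts, the filter for the fit over 28311 genes. Per kilobase of exon, the mean CD level was 168 normalised counts in Gm9396, 110.0 in C430039J01Rik, 98.2 in Gm42929, 55.9 in Gm49394, 48.7 in Gm28539, 1.23 in Gm28959 and 0.502 in Gm11769. On the same scale Hira stood at 182, Pik3c2a at 385, Cnn3 at 492 and Rpl12 at 819. Reads were found in all 25 libraries for C430039J01Rik, Gm42929 and Gm9396, in 22 for Gm28959, in 19 for Gm11769, in 11 for Gm49394 and in 5 for Gm28539.

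The values that chose the 7 were those of the comparisons with CD, in which the Wald test of DESeq2 on the recovered reads gave 10 calls at an adjusted p under 0.05 among 28. These were C430039J01Rik in LPD and WD, Gm42929 on WD, Gm28959 and Gm9396 on WD and MD-WD, Gm11769 and Gm49394 on MD-WD, and Gm28539 on MD-LPD. The calls of Gm49394 and Gm28539 were made on groups with every library at 0, where the fitted log2 values of -25.1 and -24.3 are no bound. The model nearest to the threshold on its passing side was Gm9396 on WD, with a DESeq2 adjusted p of 0.0472, and the nearest outside was the same gene in LPD, at 0.0667. Over all genes this test called 0.133% on LPD, 0.0494% on MD-LPD, 0.41% on WD and 0.171% on MD-WD. By limma on the log scale 0 of the 28 passed, as did 0 genes of the whole table in each of the 4 comparisons with CD, where 2423, 911, 4607 and 2932 genes had an unadjusted p under 0.05. The quasi-likelihood test of edgeR also called 0 of 28, and 0 of all 28311 genes tested in each of these comparisons, so its count says nothing particular about the models.

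**Figure D1:**
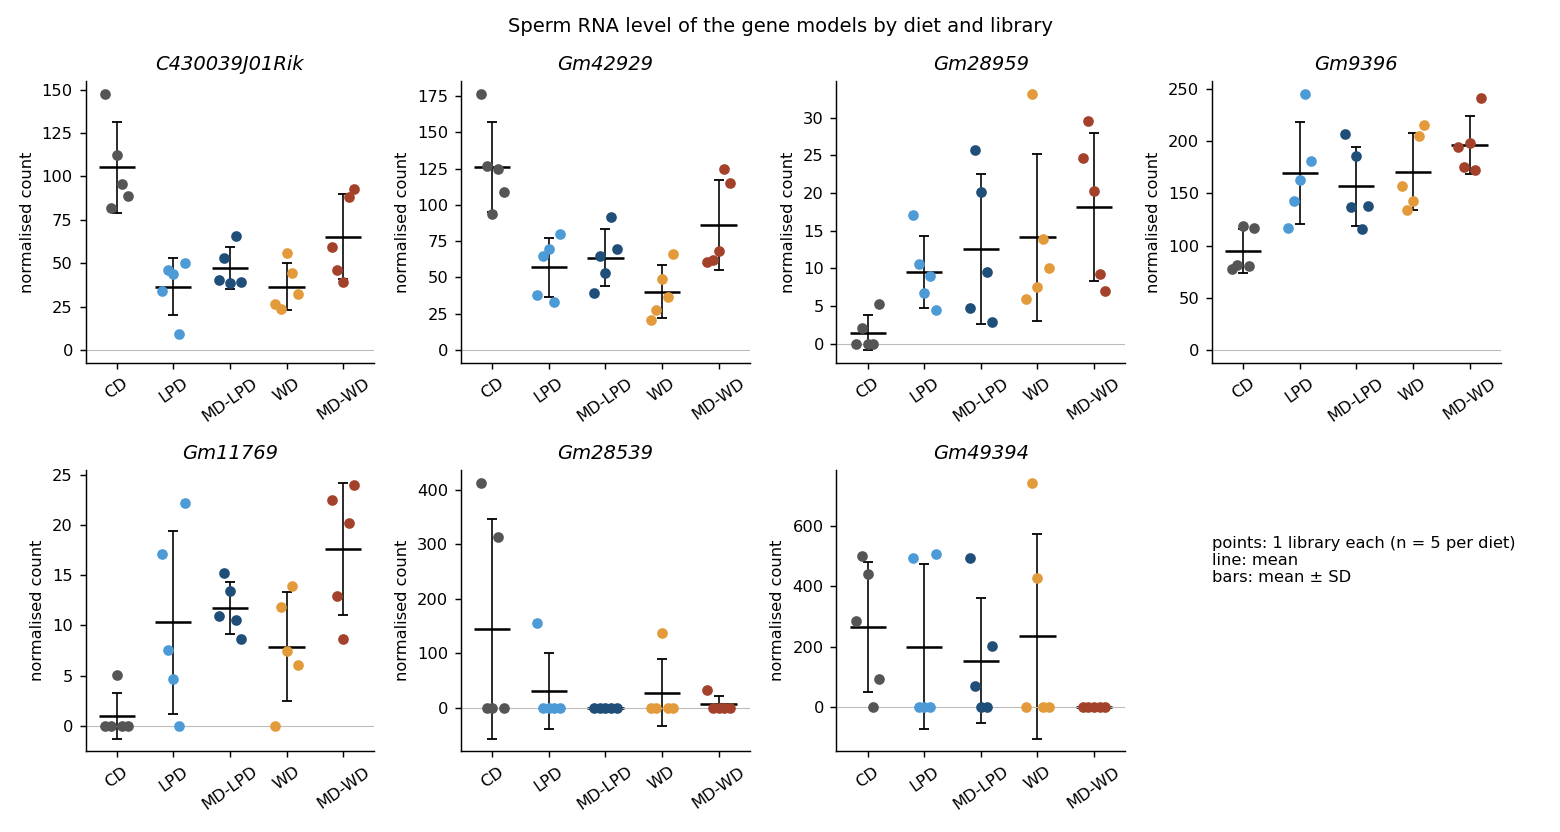
Normalised count (vertical axis, linear) of each of the 7 gene models in the 25 sperm libraries, by diet (horizontal axis), with 1 point per library, the mean as a line and bars of 1 SD on each side. C430039J01Rik and Gm42929 were highest in CD, Gm28959, Gm9396 and Gm11769 lowest in CD, and Gm28539 and Gm49394 alternated between 0 and a high level within diets.

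The intronic models C430039J01Rik and Gm42929 had lower means on every other diet than on CD. Their host genes are Pik3c2a, a phosphoinositide lipid kinase with a part in endocytosis, and Cnn3, a calponin that binds actin. C430039J01Rik had 148, 81.5, 112, 95.8 and 88.8 normalised counts in the 5 CD libraries (here and below, in ascending number of the male). It had 34.2, 45.8, 43.5, 8.95 and 49.9 on LPD and 40.5, 52.7, 38.4, 65.9 and 39.03 on MD-LPD. In WD libraries it had 26.5, 23.7, 55.7, 44.3 and 32.2, and in MD-WD libraries 59.6, 46.3, 39.01, 88.1 and 93.0. CD male 10 was the highest and LPD male 13 the lowest of all 25, and the LPD, MD-LPD and WD libraries all lay below the lowest CD library, while MD-WD overlapped CD. The means were 105 ± 26.3 on CD, 36.5 ± 16.4 on LPD, 47.3 ± 11.9 on MD-LPD, 36.5 ± 13.3 on WD and 65.2 ± 24.4 on MD-WD (SD, n = 5 each). On the log2 scale with a pseudocount of 1, the difference from CD was -1.67 on LPD, -1.14 on MD-LPD, -1.54 on WD and -0.73 on MD-WD, with a standard error of 0.38 in each. In the order of means, MD-WD, MD-LPD, WD and LPD followed CD, and each overlapped its neighbour.

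Gm42929 showed much the same order of groups. It had 177, 127, 93.7, 125 and 109 normalised counts in CD and 38.1, 64.6, 69.5, 33.3 and 79.9 on LPD. In MD-LPD it had 38.9, 64.4, 53.2, 91.7 and 69.4, in WD 20.6, 27.3, 49.2, 36.7 and 66.4 and in MD-WD 60.7, 62.2, 67.9, 125 and 115. Again CD male 10 was the highest library, the LPD, MD-LPD and WD values lay below all CD values, and MD-WD males 14 and 16 reached the level of CD. Its means were 126 ± 31.2 on CD, 57.1 ± 20.4 on LPD, 63.5 ± 19.6 on MD-LPD, 40.1 ± 18.3 on WD and 86.2 ± 31.2 on MD-WD (SD, n = 5 each). The log2 difference from CD was -1.18 on LPD, -1.003 on MD-LPD, -1.72 on WD and -0.59 on MD-WD, with a standard error of 0.34. Neighbours in the order of means overlapped for Gm42929 as well.

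Of the 7 models, those below CD in all 5 libraries were these 2 on LPD, MD-LPD and WD and 0 on MD-WD. Among all genes tested the same was true of 1.2% on LPD, 0.6% on MD-LPD, 2.56% on WD and 1.89% on MD-WD, and among the TEC genes of 5.14%, 2.46%, 11.3% and 4.38%. Since these comparisons chose the models, nothing is read from the counts of models.

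The host genes differed less from CD than their models. The models were picked for such differences and the hosts were not, so nothing is read from this gap. Pik3c2a averaged 4542 ± 288 normalised counts in CD and 2992 ± 1015 on WD (SD, n = 5 each). Its log2 difference from CD was -0.33 on LPD, -0.36 on MD-LPD, -0.67 on WD and -0.55 on MD-WD (standard error 0.22), with adjusted p of 0.731, 0.999, 0.228 and 0.481 from limma. For Cnn3 the log2 difference was 0.16 on LPD, -0.07 on MD-LPD, -0.27 on WD and -0.23 on MD-WD (standard error 0.19), with adjusted p of 0.908, 0.999, 0.441 and 0.575 from limma, and its LPD value turned to -0.10 when libraries were rescaled to equal totals. Neither host passed the threshold in any diet, and by limma no other gene tested did either. Per 100 counts of model and host together, C430039J01Rik took 2.29% ± 0.684 on CD and 0.939% ± 0.355 on LPD (SD, n = 5), and the ranges, 1.75 to 3.43% and 0.351 to 1.28%, did not overlap. Gm42929 took 7.29% ± 2.47 on CD and 2.87% ± 1.18 on WD, with ranges of 5.19 to 11.6% and 1.49 to 4.15%. For both models the LPD and WD shares lay below the CD range, while those on MD-LPD and MD-WD overlapped it. On MD-WD the ranges were 1.34 to 2.68% for C430039J01Rik and 3.71 to 7.09% for Gm42929. These shares hold the values that chose the models and carry no test.

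**Figure D2:**
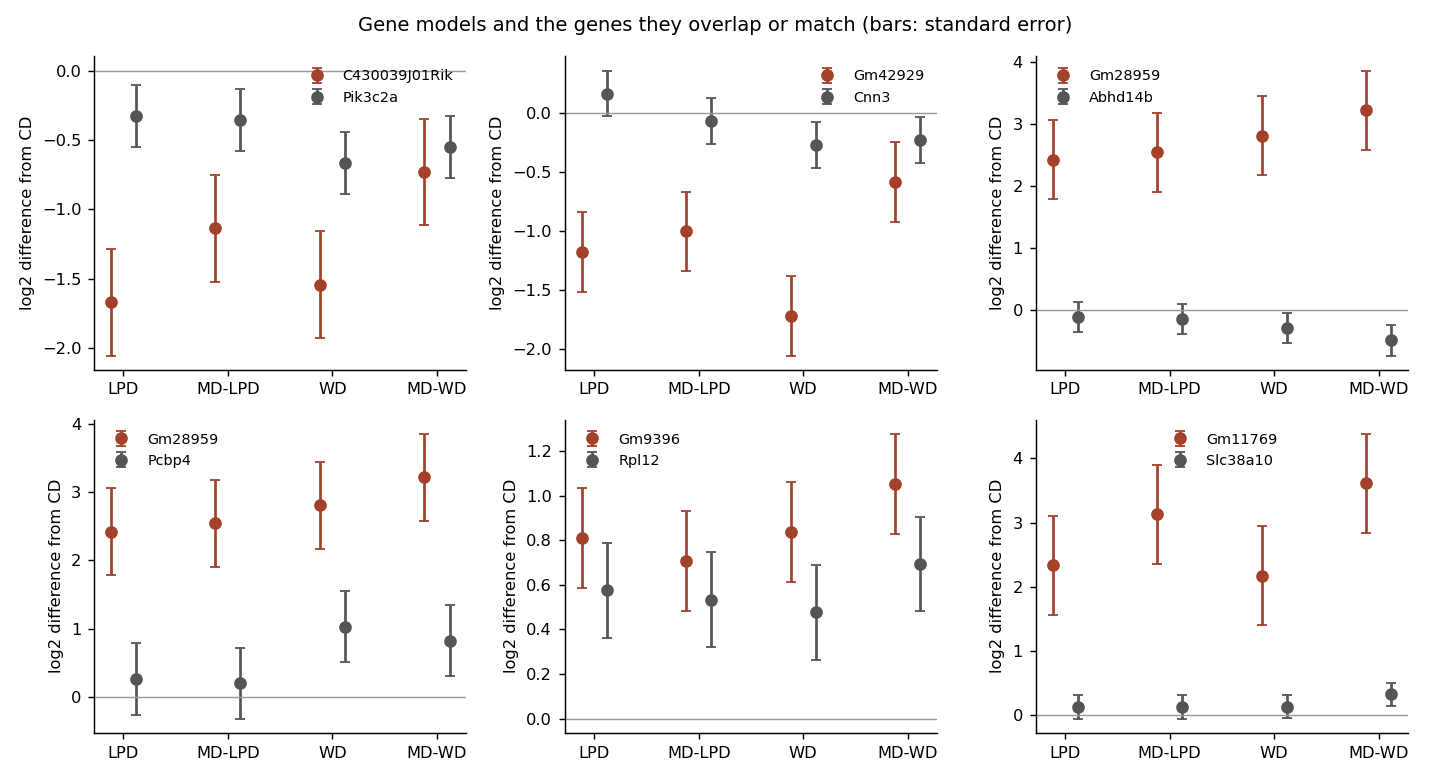
Log2 difference from CD (vertical axis, log2 of normalised count plus 1) in each diet (horizontal axis) for a gene model in red and the gene it lies in, lies antisense to or was copied from in grey, with bars of 1 standard error from limma. The grey points stay nearer to 0 than the red ones in each panel and diet, and the bars of Gm9396 and Rpl12 touch or overlap in all diets. The red genes were picked for these differences and the grey ones were not.

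Most TEC genes had a lower level than in CD sperm, and both intronic models lay below the median of the class in each diet. Of 1828 TEC genes tested, 1522 were lower than CD in LPD, 1414 on MD-LPD, 1482 on WD and 1226 on MD-WD. The median log2 difference of the class was -0.59, -0.41, -0.76 and -0.34, beside -0.04, -0.01, 0.03 and 0.11 over all genes tested and 0.02, 0.02, 0.06 and 0.11 over protein-coding genes. The class was read as a description, with no test of the list. With libraries rescaled to equal totals, which moved the median of all genes to -0.28, -0.21, -0.49 and -0.17, the TEC medians were -0.82, -0.60, -1.23 and -0.62. Within the class, 108 TEC genes had a lower difference than C430039J01Rik in WD and 509 on MD-WD. For Gm42929 these were 57 and 655.

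**Figure D3:**
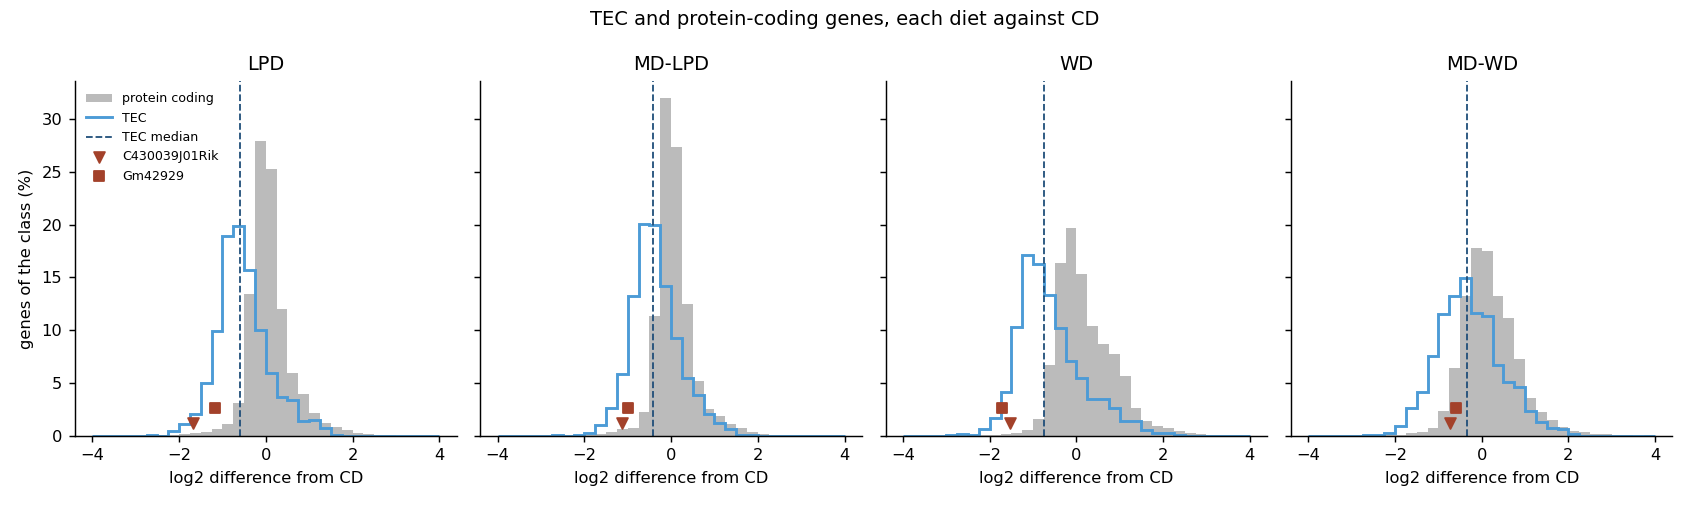
Share of genes of a class (vertical axis, percent) by log2 difference from CD (horizontal axis, in steps of 0.25) for 1828 TEC genes in blue and the protein-coding genes in grey, 1 panel per diet, with the TEC median dashed and both intronic models as red markers, whose height carries no value. The blue outline lies to the left of the grey one in every panel, with the TEC median between -0.76 for WD and -0.34 for MD-WD.

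The other 3024 TEC genes of the table together took 0.620% ± 0.169 of reads in CD, 0.364% ± 0.211 on LPD, 0.402% ± 0.201 on MD-LPD, 0.258% ± 0.138 on WD and 0.470% ± 0.281 on MD-WD (SD, n = 5 each). The CD range, 0.446 to 0.869%, lay above the WD range of 0.132 to 0.429% and overlapped the others. Across the 25 libraries the log2 level of C430039J01Rik followed the summed level of these other TEC genes with a Pearson r of 0.89 (Spearman rho 0.85). This was 0.83 without the 2 libraries farthest from the median, and 0.84 for deviations from the diet means. For Gm42929 the same values were 0.86, 0.86, 0.83 and 0.77. Both models ran against the total of reads, with r of -0.72 for C430039J01Rik and -0.78 for Gm42929 against the log2 total, and -0.68 and -0.75 around the diet means. Gm42929 also ran against the share of reads on the 7SL genes Rn7s1 and Rn7s2, an RNA of the signal recognition particle (r = -0.57). That share was 5.06 to 7.56% on CD and 4.79 to 22.9% on WD. The points of these relations share library and depth, they are given as a description, and the part of depth and of the 7SL share in the diet differences was not tested.

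**Figure D4:**
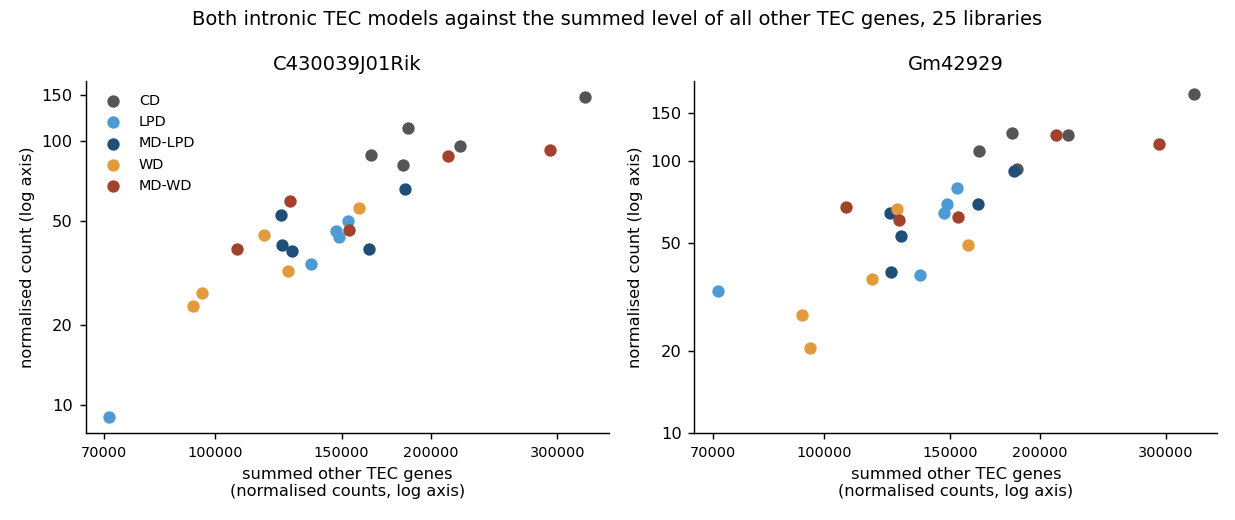
Normalised count of C430039J01Rik (left) and Gm42929 (right) on the vertical log axis against the summed normalised count of the 3024 other TEC genes (horizontal log axis), with 1 point per library coloured by diet. LPD male 13 has the lowest sum and CD male 10 the highest, and the points of both models rise with the sum from the one to the other.

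The antisense lncRNAs Gm28959 and Gm11769 were at or near 0 on CD and were read in most libraries of the other diets. Gm28959 (chr9:106328205-106330903, minus strand, 4 exon blocks) lies opposite Abhd14b, an alpha/beta hydrolase, and Pcbp4, an RNA-binding protein of the poly(C) family, with 46.1% and 28.9% of its exonic bases antisense to their exons. It had 0, 2.12, 0, 0 and 5.28 normalised counts in CD, 17.1, 10.5, 6.69, 8.95 and 4.44 on LPD and 4.67, 25.8, 20.2, 9.55 and 2.89 on MD-LPD. In WD it had 5.89, 33.2, 7.49, 13.9 and 10.1, and in MD-WD 24.7, 29.6, 20.2, 9.23 and 7. All WD and MD-WD libraries lay above the highest CD library, while LPD and MD-LPD overlapped CD at their lower end. On WD this rests on male 10, at 5.89, against CD male 15, at 5.28. Their order holds only after division by size factors of 0.679 and 1.14, and in reads CD male 15 was the higher. The means were 1.48 ± 2.31 on CD, 9.54 ± 4.81 on LPD, 12.6 ± 9.97 on MD-LPD, 14.1 ± 11.1 on WD and 18.2 ± 9.78 on MD-WD (SD, n = 5 each), resting on 8 reads in all CD libraries and 48, 69, 65 and 93 in the other groups. The log2 difference from CD was 2.42 on LPD, 2.54 on MD-LPD, 2.81 on WD and 3.22 on MD-WD, with a standard error of 0.64, and a pseudocount of 10 in place of 1 brought it to 0.76, 0.89, 0.99 and 1.24.

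Gm11769 (chr11:120041388-120043547, plus strand) overlaps the 5′ part of Slc38a10, a member of a family of sodium-coupled amino acid transporters, with 18.9% of its exonic bases antisense to exons of that gene. It had 0, 0, 5.11, 0 and 0 normalised counts in CD, 17.1, 7.52, 4.68, 0 and 22.2 on LPD and 10.9, 15.2, 13.5, 10.5 and 8.67 on MD-LPD. In WD it had 0, 11.9, 7.49, 13.9 and 6.04, and in MD-WD 22.5, 12.9, 8.67, 20.1 and 24.0. CD male 12 held all 6 reads of its group, all MD-LPD and MD-WD libraries lay above it, and LPD and WD each had 1 library at 0. The means were 1.02 ± 2.29 on CD, 10.3 ± 9.12 on LPD, 11.8 ± 2.59 on MD-LPD, 7.86 ± 5.43 on WD and 17.6 ± 6.58 on MD-WD (SD, n = 5 each). The log2 difference from CD was 2.34 on LPD, 3.13 on MD-LPD, 2.17 on WD and 3.61 on MD-WD, with a standard error of 0.77, and with a pseudocount of 10 it was 0.78, 0.99, 0.66 and 1.31. In the order of means, MD-WD was the highest group for both lncRNAs and CD the lowest, and neighbours in the order overlapped.

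Among the 7 models, those above CD in all 5 libraries were 0 on LPD, 1 on MD-LPD (Gm11769), 2 on WD (Gm28959 and Gm9396) and 3 on MD-WD (Gm28959, Gm9396 and Gm11769). Over all genes tested this held for 0.65%, 0.424%, 1.29% and 1.93%, and as before nothing is read from the counts. The libraries kept the strand of the RNA. Whether the counting used it is not given in the sources used here, and without it the reads of these lncRNAs and of the exons opposite them cannot be told apart. Of the 705 windows of 75 bases in the longest Gm28959 transcript, 378 lay opposite an exon sequence of Pcbp4 or Abhd14b, and of 1583 in Gm11769, 314 lay opposite Slc38a10.

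The partner genes on the other strand were read at levels far above the lncRNAs. Abhd14b averaged 1183 ± 269 normalised counts in CD and 835 ± 151 on MD-WD, a log2 change of -0.49 ± 0.24 (standard error, adjusted p = 0.484 from limma), the opposite sign to Gm28959. Pcbp4 averaged 937 ± 276 on CD and 2147 ± 1140.1 on WD, a log2 change of 1.03 ± 0.52 (adjusted p = 0.321 from limma). Slc38a10 averaged 1260.3 ± 264 on CD and 1584 ± 289 on MD-WD, a log2 change of 0.33 ± 0.18 (adjusted p = 0.491 from limma). None of the partners passed the threshold in any diet, and by limma no other gene tested did either. Across the 25 libraries Gm28959 had an r of 0.45 with Pcbp4, of -0.06 with Abhd14b and of 0.64 with the log2 total of reads, and Gm11769 an r of 0.30 with Slc38a10. With the summed other TEC genes and the 7SL share, r was -0.59 and 0.56 for Gm28959 and -0.04 and 0.26 for Gm11769. The part of these in the diet differences was not tested. Between the lncRNAs r was 0.58, and 0.07 around the diet means.

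The pseudogene Gm9396 had a higher mean in all diets than in CD sperm. So had its parent Rpl12, which encodes a protein of the large ribosomal subunit, though with equal totals its WD difference changed sign. Gm9396 had 77.8, 81.5, 119, 80.3 and 117 normalised counts in CD, 117, 143, 162, 246 and 181 on LPD and 207, 137, 186, 116 and 138 on MD-LPD. In WD it had 158, 134, 142, 205 and 215, and in MD-WD 194, 175, 198, 172 and 242. All WD and MD-WD libraries lay above all CD libraries, and the lowest LPD and MD-LPD libraries fell just within the CD range. Its means were 95.2 ± 21.0 on CD, 169.7 ± 48.5 on LPD, 157 ± 38.1 on MD-LPD, 171 ± 37.1 on WD and 196 ± 27.9 on MD-WD (SD, n = 5 each), with log2 differences of 0.81 on LPD, 0.71 on MD-LPD, 0.84 on WD and 1.05 on MD-WD (standard error 0.22). With equal totals they were 0.55, 0.50, 0.31 and 0.76. Rpl12 averaged 3047 ± 419 on CD, 4653 ± 1359 on LPD, 4507 ± 1223 on MD-LPD, 4259.6 ± 718 on WD and 5021 ± 1396 on MD-WD, with log2 differences of 0.58 on LPD, 0.53 on MD-LPD, 0.48 on WD and 0.69 on MD-WD (standard error 0.21). Like every gene tested against CD by limma, Rpl12 did not pass the threshold (adjusted p from limma 0.561, 0.999, 0.280 and 0.481). With equal totals its WD value turned to -0.06.

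In each library the copy took a small share of the counts of both genes. Gm9396 made up 3.06% ± 0.675 of the sum in CD, 3.53% ± 0.316 on LPD, 3.38% ± 0.141 on MD-LPD, 3.87% ± 0.590 on WD and 3.87% ± 0.651 on MD-WD (SD, n = 5 each). The CD range was 2.11 to 3.94% and overlapped that of all other diets. The levels of Gm9396 and Rpl12 had an r of 0.85 over 25 libraries (rho 0.85), 0.81 without the 2 farthest libraries and 0.76 around the diet means. With 368 of 493 windows found in other genes too, reads of the copy and of its relatives can be split between them by the counting, and the Gm9396 count is uncertain for that reason. The genes nearest to Gm9396 on the chromosome are Sec24b, a subunit of the vesicle coat that leaves the endoplasmic reticulum, at 6859 bases and Col25a1, a membrane collagen, at 62523 bases. The log2 difference of Sec24b from CD was 0.02, 0.01, 0.06 and 0.13 in the order of the diets above (standard error 0.12).

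The models that share most of their exonic bases with Hira (Gm28539) and Igf2 (Gm49394) had reads in some libraries and 0 in the rest. Each was at 0 in all libraries of 1 diet. Hira, the gene that makes up most of Gm28539, encodes a histone chaperone that places a histone variant outside DNA replication. Gm28539 had 414, 0, 0, 313 and 0 normalised counts in CD and 155, 0, 0, 0 and 0 on LPD. In WD it had 0, 0, 138, 0 and 0, in MD-WD 32.6, 0, 0, 0 and 0, and in all MD-LPD libraries 0. Thus 2 CD libraries, those of males 10 and 14, held most of its counts, and 20 of the 25 libraries held none. Set against a floor of 3 counts over the MD-LPD group, the CD mean of 145 ± 202 (SD, n = 5) was 262-fold higher, yet 3 CD libraries were at 0 as well. The floor covers the counting of reads and not the spread between libraries, so this fold is no bound on a diet difference. Without CD males 10 and 14 the CD group would hold no read of it, and fitted log2 values against a group at 0 depend on the pseudocount and are no bound.

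The sum with Hira was far steadier. Most of that sum was Hira, with Gm28539 at 0 to 30.9% of it on CD, so its steadiness is largely that of Hira. Gm28539 plus Hira came to 1337, 1036, 1326, 1415 and 1278 on CD and to 976, 1053, 1439, 1313 and 1297 on MD-LPD. Hira by itself was at 924 to 1102 (median 979.7) in the 5 libraries with a read of Gm28539 and at 915 to 1439 (median 1133) in the other 20. The log2 difference of the sum from CD was -0.11 on LPD, -0.08 on MD-LPD, -0.23 on WD and -0.18 on MD-WD, against -1.94 on LPD, -3.40 on MD-LPD, -1.97 on WD and -2.38 on MD-WD for Gm28539 with a standard error of 1.84. Hira averaged 1133 ± 168 on CD and 1216 ± 194 on MD-LPD (log2 difference 0.10 ± 0.15, standard error, adjusted p = 0.999 from limma). The upstream partner 2510002D24Rik averaged 216 ± 28.1 and 252 ± 33.9 (adjusted p = 0.999 from limma). Other genes inside its span were Mrpl40, a protein of the mitochondrial ribosome, at 352 ± 53.3 on CD, and the pseudogenes Gm15799 and Gm15798, at 7.43 ± 4.75 and 7.65 ± 2.08 (SD, n = 5 each).

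Gm49394 spans Igf2, the insulin-like growth factor that in mice is expressed from the paternal allele. It had 286, 503, 442, 0 and 94.1 normalised counts in CD and 494, 0, 0, 0 and 508 on LPD. In MD-LPD it had 494, 67.9, 0, 0 and 204, in WD 0, 746, 429, 0 and 0, and in all MD-WD libraries 0. High levels and 0 stood side by side within CD, LPD, MD-LPD and WD, and 14 of 25 libraries were at 0. Set against a floor of 3 counts over the MD-WD group, the CD mean of 265 ± 217 (SD, n = 5) was 449.7-fold higher. This floor too leaves out the spread between libraries, so the fold is no bound on a diet difference.

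Igf2 ran the other way. In CD it had 0, 38.1, 35.8, 288 and 157 normalised counts, in LPD 27.6, 480.3, 312, 1507 and 64.3 and in MD-LPD 599.5, 389, 514, 404 and 46.3. In WD it had 580.1, 17.8, 29.98, 339 and 538, and in MD-WD 409, 253, 400.3, 567 and 425. In the 11 libraries with Gm49394 reads, Igf2 was at 0 to 599.5 (median 38.1), and in the 14 without, at 253 to 1507 (median 417). The sum of both was 250.1 to 1093 (median 478) in the first set and 253 to 1507 (median 417) in the second. By diet the sum averaged 369 ± 131 on CD, 679 ± 473 on LPD, 544 ± 323 on MD-LPD, 536 ± 157 on WD and 411 ± 111 on MD-WD (SD, n = 5 each). The MD-WD range of the sum, 253 to 567, overlapped the CD range of 251 to 541. The log2 difference of the sum from CD was 0.73 on LPD, 0.45 on MD-LPD, 0.56 on WD and 0.18 on MD-WD, beside -2.91 on LPD, -1.95 on MD-LPD, -2.84 on WD and -6.50 on MD-WD for Gm49394 alone, with a standard error of 2.38. Igf2 alone differed from CD by 3.45 ± 1.27 on MD-WD (standard error, adjusted p = 0.481 from limma), a value that shares its reads with the model chosen on this comparison. The antisense genes Igf2os and Gm33148 averaged 1.02 ± 2.29 and 0.704 ± 1.57 on CD (SD, n = 5 each).

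**Figure D5:**
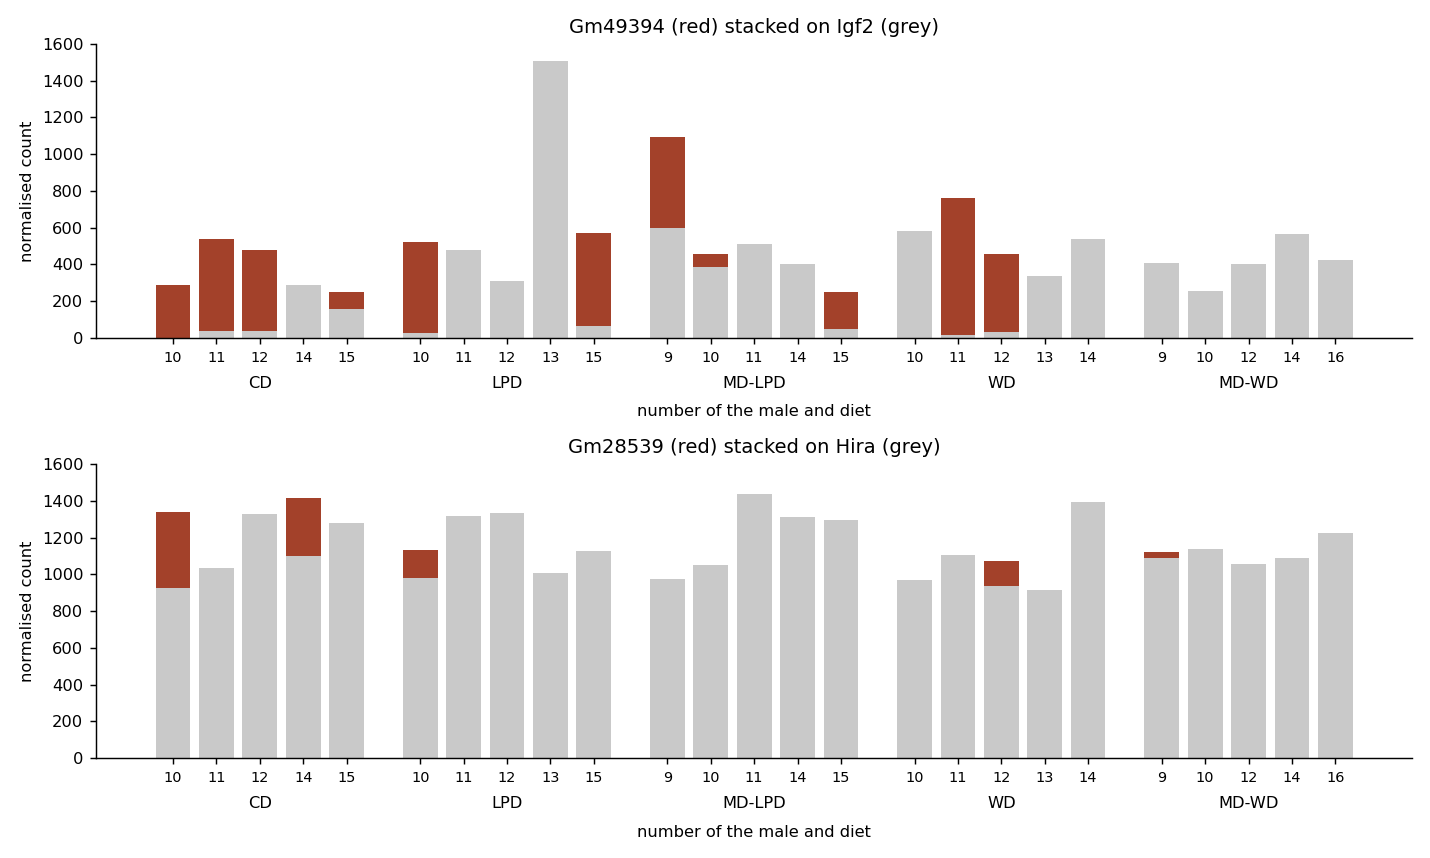
Normalised counts (vertical axis, linear) of Gm49394 in red stacked on Igf2 in grey (top) and of Gm28539 in red stacked on Hira in grey (bottom), with 1 bar per library by diet and number of the male. Red takes most of the bar in some libraries and none in others within 4 of the 5 diets for Gm49394, while the height of the bars runs from 250.1 to 1507 in the top panel and from 915 to 1439 in the bottom one.

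Whether the genes around the models moved with diet was tested on genes named by position. Those that overlap a model, such as Igf2 and Hira, can share reads with it and are not independent of the choice. Within 100 kb of a model or overlapping it, the table held 61 other genes, of which 46 were tested. By limma 0 of the 46 passed an adjusted p under 0.05 in each of the 4 diets, and DESeq2 also called 0. Over all genes tested limma called 0 too, and DESeq2 called 0.133, 0.0494, 0.41 and 0.171%. The counts of 0 therefore say nothing particular about the neighbours. At an unadjusted p under 0.05 there were 4 on LPD, 2 on MD-LPD, 8 on WD and 5 on MD-WD, or 8.70, 4.35, 17.4 and 10.9%, close to the 8.56, 3.22, 16.3 and 10.4% of all genes. Without the overlapping genes, a count added after the data were seen, 36 were tested, again with 0 calls by limma and by DESeq2 in each diet, and 4, 1, 7 and 3 (11.1, 2.78, 19.4 and 8.33%) had an unadjusted p under 0.05. The lowest adjusted p was 0.220, for Gm45033 on WD. Gm45033 is another TEC gene, 10130 bases from C430039J01Rik, and lies like it within the span of Pik3c2a on the same strand. It averaged 282 ± 69.6 normalised counts in CD and 96.3 ± 66.2 on WD (SD, n = 5 each, log2 difference -1.76 ± 0.53, standard error), and had an r of 0.79 with C430039J01Rik over the 25 libraries.

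The nearest genes on each side showed no common direction. Gm44777, a lncRNA at 6086 bases from C430039J01Rik on the other strand, had a log2 difference of 1.10 on WD (adjusted p = 0.363 from limma), and AV356131, a lncRNA at 32302 bases, of -0.47. Gm42928, a TEC gene 472 bases from Gm42929 on the other strand, had -0.62 on WD (adjusted p = 0.325 from limma), and Slc44a3, of the choline transporter-like family, had -0.26 on WD and -0.90 on MD-WD (adjusted p = 0.481 from limma). Next to Gm28959, Abhd14a had 0.84 and Gpr62, an orphan receptor, 1.22 on WD, with adjusted p of 0.356 and 0.273 from limma. Next to Gm11769, Ndufaf8, an assembly factor of respiratory complex I, had 0.66 on WD (adjusted p = 0.228 from limma), and Reno1 was too low to be tested. Beside Gm28539, Ufd1, which takes part in the removal of ubiquitinated proteins, had -0.20 on MD-LPD (adjusted p = 0.999 from limma), and Gm18747 was too low to be tested. Beside Gm49394, H19, the maternally expressed RNA of the imprinted cluster, had 2.17 on LPD and 1.55 on MD-WD, and Ins2, an insulin gene, 1.14 on MD-WD, with adjusted p of 0.561, 0.505 and 0.540 from limma.

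A model was also tested between diets that were not the ones named for its choice, in 8 comparisons, and none passed (limma, adjusted over all genes tested). Gm11769 was taken as chosen on MD-LPD and MD-WD. Every diet had been searched against CD when the models were picked, so the groups compared here were not wholly free of the choice. In MD-LPD against LPD sperm, the log2 difference was 0.18 ± 0.34 for Gm42929, 0.12 ± 0.64 for Gm28959, -0.10 ± 0.22 for Gm9396 and 0.96 ± 2.38 for Gm49394 (standard error, adjusted p = 1 from limma in each). In WD against LPD sperm it was -0.16 ± 0.77 for Gm11769, -0.03 ± 1.84 for Gm28539 and 0.07 ± 2.38 for Gm49394, with adjusted p of 0.955, 0.997 and 0.996 from limma. In MD-WD against WD sperm it was -0.41 ± 1.84 for Gm28539 (adjusted p = 0.999 from limma). Over all genes, limma called 0 in each of these 3 comparisons, with 451, 1659 and 1570 genes (1.59, 5.86 and 5.55%) at an unadjusted p under 0.05, and DESeq2 called 15, 16 and 15 (0.0316, 0.0587 and 0.0485%). The standard errors leave room for changes of more than 2-fold in Gm28959, Gm11769, Gm28539 and Gm49394, so these tests do not show that the diets acted alike. C430039J01Rik had been chosen on LPD and WD, and each of the 3 comparisons held one of those groups.

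The 3 libraries with conflicting labels did not set the direction of any model. Without them the difference from CD was -1.88 for C430039J01Rik in LPD, -1.76 for Gm42929 on WD, 3.67 for Gm28959, 1.13 for Gm9396 and 3.48 for Gm11769 on MD-WD. For Gm28539 on MD-LPD it was -4.25 and for Gm49394 on MD-WD -6.48. The value that moved farthest was Gm49394 on LPD, at -4.25 in place of -2.91.

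The genes whose level ran most like each model over the 25 libraries were found by the Pearson r of log2 values among 28049 named genes. For C430039J01Rik they were 1300014J16Rik (0.91), Gm17477 (0.91) and Thoc1 (0.91), and for Gm42929 Gm49502 (0.91), Bcas3os1 (0.91) and Gm43920 (0.90). Thoc1, a subunit of the complex that exports messages from the nucleus, was the protein-coding gene among these 6, beside 4 lncRNA genes and 1 TEC gene. For Gm9396 they were Gm6252 (0.91), Rps29 (0.90) and Rpl32 (0.87), where Gm6252 is a processed pseudogene and Rps29 and Rpl32 are ribosomal proteins. For Gm28959 they were Gm36831 (0.78), Ppp1ccb (0.78) and Kxd1 (0.77), and for Gm11769 Gm17767 (0.77), Cntn2 (0.76) and Gm27198 (0.73). No gene came as near for Gm28539, with Gm9523 (0.64), Nrip2 (0.63) and Cntn3 (0.62) as its highest. Nor did any for Gm49394, with 2310026L22Rik (0.59), Btf3-ps12 (0.57) and Odaph (0.55). These values are the highest of many and hold the diet differences that chose the models, so they are descriptions with no test.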

How the data were processed

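Sperm RNA of 25 males, 5 per diet, was analysed. Per the paper's methods and the labels, the authors extracted total RNA from sperm that had swum up from the epididymis, depleted ribosomal RNA, made stranded libraries, sequenced pairs of 75-base reads, and used Trim Galore 0.6.7 for trimming, HISAT2 2.2.1 for alignment (genome GRCm39) and StringTie 2.2.1 for quantification. The deposited signal is a normalised count, the count of a gene divided by the DESeq2 size factor of its library. Multiplied by that factor (0.642 to 1.50), 100% of values were whole reads within 0.01, and those reads were used for edgeR and DESeq2 only. A read count set by such assignment depends on how reads of shared exons and copies are split between overlapping genes.

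Gene models, exons and neighbours came from GENCODE vM39, which named 47034 of the 47575 genes and not the other 541. Sequences were read from GRCm39, and windows of 75 bases of each model's longest transcript were searched in all other transcripts on both strands after a blastn search. The test was limma 3.58.1 (R 4.3.3), trended and robust, on log2 of the normalised count plus 1, for the 28311 genes whose mean reached 5, with the 5 diets in 1 model and Benjamini-Hochberg adjustment over all genes tested. edgeR 4.0.16 and DESeq2 1.42.0 at an alpha of 0.05 were alternatives, as were other pseudocounts, filters and scalings, the 2 groups alone, other windows, blocking on the male's number, libraries with conflicting labels and leaving out each library. TMM and the omissions for class medians, and the omissions for sums, were chosen after seeing the data. The script was tested on simulated data.

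The 7 models and the lists were chosen with earlier results of these data known. Named were the models, genes that overlap or flank them, their best sequence match, the 3 genes of highest r and marker genes. Nothing was averaged over duplicates, since none of 300 pairs of libraries agreed within sampling noise. Each library is a separate male. The paper gives more males per group than the 5 analysed here. Python 3.11.15, numpy 2.4.6, pandas 2.3.3 and matplotlib 3.10.9 made tables and figures.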

Additional observations from a re-analysis of the deposited data

Results flagged for a closer look

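Of 48 sets of 5 libraries with any spread, 6 had 1 library far from the other 4. Chance gives about 1 in 20 for values with a normal spread, a rate that does not apply to the 4 sets below in which the other libraries were all at 0. Gm11769 was at 5.11 normalised counts in CD male 12 and at 0 in the other CD libraries. Gm28539 was at 155 in LPD male 10, at 138 in WD male 12 and at 32.6 in MD-WD male 9, and at 0 in the other libraries of those diets. The sum of Gm49394 and Igf2 reached 1507 in LPD male 13, where all of it was Igf2. The sum of Gm9396 and Rpl12 reached 7682 in MD-WD male 16.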

How the results depend on the processing

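The count of changed neighbouring genes stayed at 0 in all 4 diets under all 156 alternatives, with 0.0689 as the lowest adjusted p of any neighbour. The main limma fit and edgeR called 0 of all genes tested against CD, so this count says little about the neighbours. All 28 differences of the models from CD kept their sign in all 1028 alternatives, and 1014 of these moved by less than 1 SD between replicates. The models were picked for differences from CD in these same libraries, so the kept signs are no evidence for the directions. Among the 14 that moved farther were the DESeq2 values of -24.3 for Gm28539 on MD-LPD and -25.1 for Gm49394 on MD-WD, both for groups at 0. None of the 8 comparisons between diets passed in 294 alternatives (lowest adjusted p 0.630). Their direction was not fixed. Grouped by the treatment field, Gm9396 in MD-LPD minus LPD was 0.099 and Gm11769 in WD minus LPD 0.84, and without the 3 libraries in conflict the latter was 0.25. With equal totals Gm28539 in WD minus LPD was 0.094, and Gm49394 in MD-LPD minus LPD was -0.33 by edgeR and -0.39 by DESeq2. Leaving out 1 library at a time gave -0.21 to 0.48 for Gm28959 and -0.23 to 0.041 for Gm9396 and -0.14 to 2.31 for Gm49394 in MD-LPD minus LPD. It gave -0.88 to 0.51 for Gm11769, -1.46 to 1.42 for Gm28539 and -1.40 to 1.42 for Gm49394 in WD minus LPD, and -1.42 to 1.01 for Gm28539 in MD-WD minus WD. With equal totals the sum of Gm28539 and Hira moved to -0.37 on LPD, -0.29 on MD-LPD, -0.77 on WD and -0.47 on MD-WD, that of Gm9396 and Rpl12 to -0.046 on WD, and the TEC median to -1.23 on WD, a scaling that moves every gene down together. With 1 library left out the TEC median was -0.70 to -0.30 on LPD, -0.53 to -0.28 on MD-LPD, -0.88 to -0.64 on WD and -0.42 to -0.19 on MD-WD.

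The numbers of the males do not pair the libraries, as 12 of 33 pairs with the same number correlated above 0.1 (mean r 0.03). With a replicate block for that number, the 8 comparisons gave 0.17, 0.13, -0.098, 0.99, -0.16, -0.073, 0.19 and -0.48 in the order of the report, and the neighbour count stayed at 0 in each diet. Depth limits Gm28959 and Gm11769, with at most 93 reads in a group.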

Other observations

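The TEC genes were also split by place, a split chosen after the values were seen. Of the 1828 tested, 1078 lie wholly inside a protein-coding gene on the same strand, as C430039J01Rik and Gm42929 do, and 750 do not. Of the 1078, 969 were lower than CD in LPD, 906 on MD-LPD, 976 on WD and 801 on MD-WD, with medians of -0.70, -0.50, -0.92 and -0.45 on the log2 scale. Of the other 750, 553, 508, 506 and 425 were lower, with medians of -0.39, -0.26, -0.42 and -0.14. The difference between the sets was not tested.

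Igf2 was the gene with the lowest r of all against Gm49394 over the 25 libraries, at -0.74 among 28049 genes. The lowest r against C430039J01Rik was that of the pseudogene Gm10145, at -0.84, and that against Gm9396 was of Cdc73, a subunit of a complex that travels with RNA polymerase, at -0.78.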
